A study of Mus musculus with 6 samples.

Results

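The genes described here belong to families of Golgi glycosyltransferases that build N-glycans and O-glycans, studied in mouse LSK cells. Some members, such as B4galt5 and B3gnt5, make glycolipids instead. They were chosen by symbol alone, as names beginning with Mgat, Gcnt, B3gnt, B4galt, Galnt, St3gal, St6gal or Fut followed by a digit. Of 53445 loci in the deposited table, 60 matched this pattern, and they carried 57 symbols in 8 symbol families. Where a symbol was listed at 2 loci (Mgat5, Galnt5 and Galnt11), the longer locus was used. The Galnt family held 13 genes, the B3gnt, Fut and Mgat families 8 each, B4galt 7, St3gal 6, Gcnt 5 and St6gal 2.

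LSK cells are bone marrow cells that lack lineage markers and carry Sca-1 and c-Kit, a fraction that holds hematopoietic stem cells and multipotent progenitors. RNA-Seq libraries were made from LSK cells of female mice on a C57BL/6 background, 3 of them OgaVav-Cre and 3 wildtype, aged about 12 weeks. OgaVav-Cre mice came from Oga fl/fl mice bred with Vav-iCre, so that the deletion was driven by the Vav promoter in the hematopoietic lineage and not in LSK cells alone, and the wildtype libraries come from mice without the deletion. Oga encodes the enzyme that removes O-GlcNAc, a single sugar on nuclear and cytoplasmic proteins.

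Glycan chains grow step by step, each step made by a transferase that takes a nucleotide sugar and adds it to a defined acceptor. N-glycans are trimmed and then branched by the Mgat enzymes, lengthened by B3gnt and B4galt enzymes and capped with sialic acid or fucose, while mucin-type O-glycans are started by the Galnt enzymes and branched by Gcnt enzymes. Most Mgat, Gcnt and B3gnt enzymes use UDP-GlcNAc, which is also the sugar donor for O-GlcNAc. Sialylated and fucosylated glycans on blood cells are known as ligands of selectins.

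Library totals were 25190298 to 27064389 reads in the OgaVav-Cre group and 19318056 to 21684561 in the wildtype group, so reads of different libraries are compared below as CPM, counts scaled to library size by the TMM method of edgeR. Values of single libraries follow the order of replicates 1, 2 and 3. Reads on Mgea5, the former symbol of Oga, numbered 104, 109 and 110 in the 3 OgaVav-Cre libraries against 3164, 2970 and 2736 in wildtype, a log2 fold change of -5.01 ± 0.17 (SE) with an edgeR adjusted p of 5.88e-05. All 12 markers of LSK cells were detected, with summed levels of 1274 to 2679 CPM for OgaVav-Cre against 1689 to 2955 CPM for wildtype. Of 14 plasma cell markers, 12 were found in the table and none was at 0, although the sort excluded lineage-positive cells. Their sum was 112924, 43710 and 12158 CPM for OgaVav-Cre replicates 1 to 3, against 20405, 56115 and 12977 CPM for wildtype replicates 1 to 3. Most of it came from Ighm, Igkc and Igj, with means of 37142, 12404 and 5343 CPM for OgaVav-Cre and 17750, 7768 and 3540 CPM for wildtype. The next highest marker, Txndc5, had means of 626 and 297 CPM. Markers of B cell precursors summed to 518, 330 and 1468 CPM for OgaVav-Cre against 1382, 388 and 1124 CPM for wildtype. OgaVav-Cre replicate 3 had the highest sums of erythroid markers (3677 CPM against 372 to 1157 CPM in the other libraries), of dendritic cell and macrophage markers (686 against 78.9 to 360 CPM) and of T and NK cell markers (198 against 64.3 to 124 CPM). It also had the highest sum of granulocyte and monocyte markers (1866 against 612 to 1294 CPM). Its sum of LSK markers was the lowest (1274 against 1689 to 2955 CPM). All these sums overlapped between genotypes, and their part in the results below was not tested except where a value is given. By gene, the log2 fold change of OgaVav-Cre over wildtype was above 0 for all 12 plasma cell markers (median 0.68), against 50.5% of all loci. These 12 markers largely moved together between libraries and are not separate observations. Their sum was highest in OgaVav-Cre replicate 1. Among the other libraries it was highest in wildtype replicate 2 and lowest in OgaVav-Cre replicate 3. Their direction without OgaVav-Cre replicate 1 was not tested. The log2 fold change was above 0 for 4 of 12 LSK markers and 2 of 12 B cell precursor markers. Of the sort markers, Ly6a (Sca-1) was at 1.03 ± 0.46 (edgeR adjusted p 0.483) and Kit at -0.26 ± 0.29 (edgeR adjusted p 0.761). In bulk libraries such as these, fewer cells of a type and less RNA per cell cannot be told apart.

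To ask which of these enzymes LSK cells transcribe, levels were compared between genes on the authors' RPKM scale, which divides reads by locus length. Of the 57 genes, 45 had enough reads to be tested (78.9%, against 41.2% of all loci). Mean RPKM over the 6 libraries was at least 10 for 14 genes, from 5 to 10 for 9, from 1 to 5 for 18 and below 1 for 4 of the tested genes. Tested genes ranged from 0.143 RPKM for B4galt2 to 42.7 RPKM for B3gnt2, with a median of 5.26 RPKM.

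A handful of enzymes carried most of the signal in several families. B3gnt2, which extends poly-N-acetyllactosamine chains, held 61.3% of the summed RPKM of its family, and Gcnt2, which branches such chains, held 85.2%. Mgat2 and Mgat1, which make the first 2 branches of a complex N-glycan, together held 81.4% of the Mgat signal. St6gal1, which caps N-glycans with sialic acid, held 99.9% of the St6gal signal. The other families were spread more evenly: the leading gene held 27.5% of the Galnt signal, 30.6% of St3gal, 39.6% of B4galt and 40.2% of Fut.

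**Figure D1:**
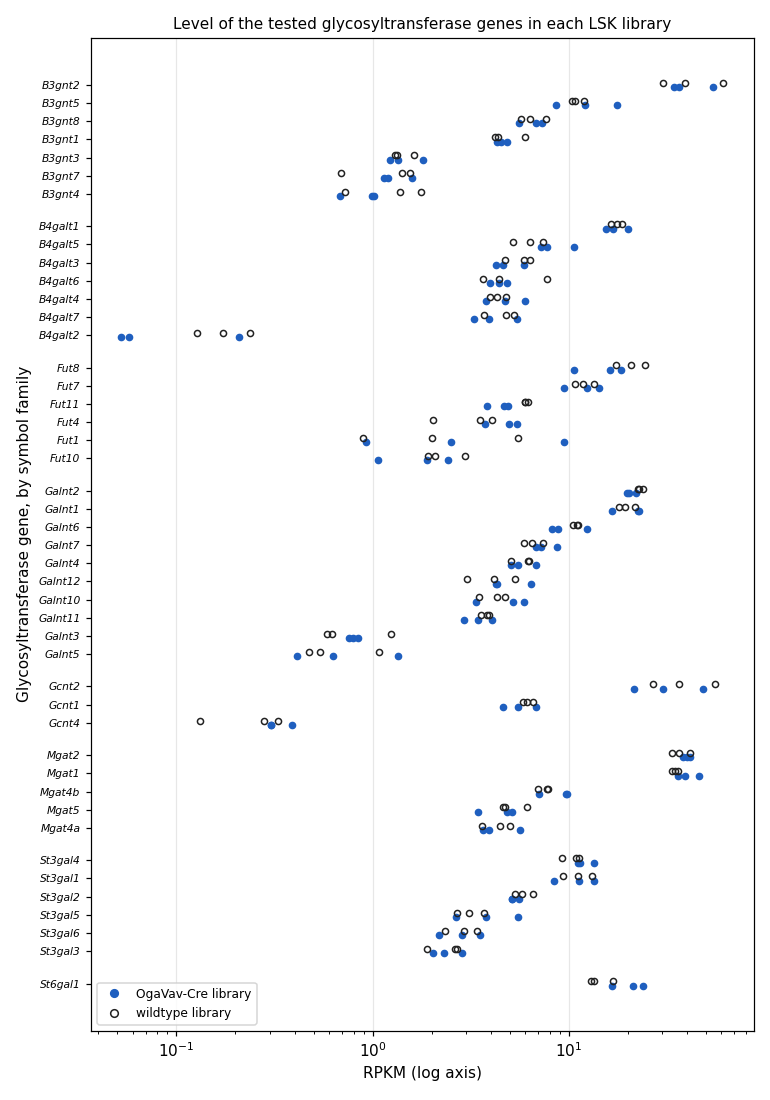
Level of each of the 45 tested glycosyltransferase genes, grouped by symbol family, with RPKM on a log axis and 1 point per library (filled, OgaVav-Cre; open, wildtype). The libraries of the 2 genotypes overlap in CPM for 41 of the 45 genes, and levels span from below 0.1 to above 50 RPKM.

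The 12 genes left out of the test had few or no reads. Fut9, Galnt13, Gcnt3 and Mgat5b had 0 reads in all 6 libraries, where the 3 reads that a count of 0 allows correspond to 0.111 to 0.155 CPM. The remaining 8 (B3gnt6, Fut2, Galnt9, Galnt14, Gcnt7, Mgat3, Mgat4c and St6gal2) had at most 3 to 27 reads in any library, and none had a mean above 0.145 RPKM. Among them are Mgat3, which adds the bisecting GlcNAc, with 22, 12 and 5 reads across OgaVav-Cre mice against 8, 2 and 0 across wildtype, and B3gnt6, which makes the core 3 O-glycan, with 5, 0 and 5 against 1, 0 and 4 reads. No difference between genotypes was detectable for these 12 genes at this depth.

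Promoter sequences from RefSeq (GRCm38.p6) were matched to 43 of the 57 genes, and CpG dinucleotides (CG on the printed strand, the same on both strands) were counted in the 300 bases from 250 before to 50 after each annotated start. Where a gene had several annotated starts, the start with the most CpG was used, both for these genes and for the whole promoter table. The median was 23 CpG for the 36 tested genes with a promoter, with a range of 5 to 41, and also 23 for the 7 untested genes, with a range of 9 to 41. Over all 27025 genes in the promoter table the median was 8. Mgat2, at 38.7 RPKM, and Mgat5b, at 0 reads, are shown as a pair far apart in level, with 37 and 36 CpG in this window. Their 250 bases before the start are printed 5′ to 3′ with each CpG in capitals, Mgat2 from the plus strand of chr12:69183908-69184157 and Mgat5b from the plus strand of chr11:116918613-116918862, and hold 30 and 25 CpG.
Mgat2: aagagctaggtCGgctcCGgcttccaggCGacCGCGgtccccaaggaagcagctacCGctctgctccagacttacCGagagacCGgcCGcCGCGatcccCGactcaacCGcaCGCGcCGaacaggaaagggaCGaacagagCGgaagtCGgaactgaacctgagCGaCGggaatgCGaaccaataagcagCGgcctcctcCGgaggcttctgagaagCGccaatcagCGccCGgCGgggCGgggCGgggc
Mgat5b: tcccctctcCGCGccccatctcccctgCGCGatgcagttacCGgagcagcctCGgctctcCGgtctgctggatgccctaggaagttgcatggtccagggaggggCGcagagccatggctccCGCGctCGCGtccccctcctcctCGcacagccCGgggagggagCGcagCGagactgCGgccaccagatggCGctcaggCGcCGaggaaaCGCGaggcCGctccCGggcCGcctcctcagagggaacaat

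To ask whether loss of Oga changed the transcripts of these enzymes, the 2 genotypes were compared gene by gene. None of the 45 tested genes was called by edgeR at an adjusted p below 0.05, where 0.0318% of all 22032 loci tested were called, and adjusted p ranged from 0.412 to 1.00. At an unadjusted p below 0.05, 3 genes were found (6.67%, against 10.6% of all loci), 2 of them higher in OgaVav-Cre (4.38% of all loci) and 1 lower (6.27% of all loci). DESeq2 was run without the filter on low reads and gave a p for 53 of the 57 genes, while limma-voom tested the same 45. Both called 0 genes, with 4 and 3 at an unadjusted p below 0.05 and lowest adjusted p of 0.197 and 0.403. DESeq2 called 0.87% of the 22307 loci with an adjusted p. It had 6.72% of 36466 loci at an unadjusted p below 0.05. Over the 22032 loci, limma-voom called 0.0227% and had 10.9% at an unadjusted p below 0.05.

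Most differences were small. The log2 fold change of OgaVav-Cre over wildtype was above 0 for 28 genes and below 0 for 17 (62.2% above 0, against 50.5% of all loci), and its median was 0.063, against 0.0041 over all loci. The median size of the log2 fold change, regardless of sign, was 0.18, against 0.24 over all loci, and the range was from -0.69 for B4galt2 to 0.72 for Fut1. B4galt2 had only 4, 15 and 4 reads across OgaVav-Cre mice against 14, 7 and 11 across wildtype (SE 0.68). The 95% interval of the log2 fold change lay within -1 and 1 for 35 of the 45 genes (77.8%, against 58.3% of all loci). The 10 genes for which it did not were B3gnt4, B4galt2, Fut1, Fut4, Fut10, Galnt5, Gcnt2, Gcnt4, St3gal5 and St6gal1. For 13 genes the interval lay within -0.5 and 0.5. The CPM of the 3 OgaVav-Cre libraries did not overlap those of the 3 wildtype libraries for 4 of 45 genes (8.89%, against 17.5% of all loci). B4galt5, Mgat1 and St3gal4 were higher in OgaVav-Cre (7.5% of all loci) and Fut11 lower (9.97% of all loci).

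**Figure D2:**
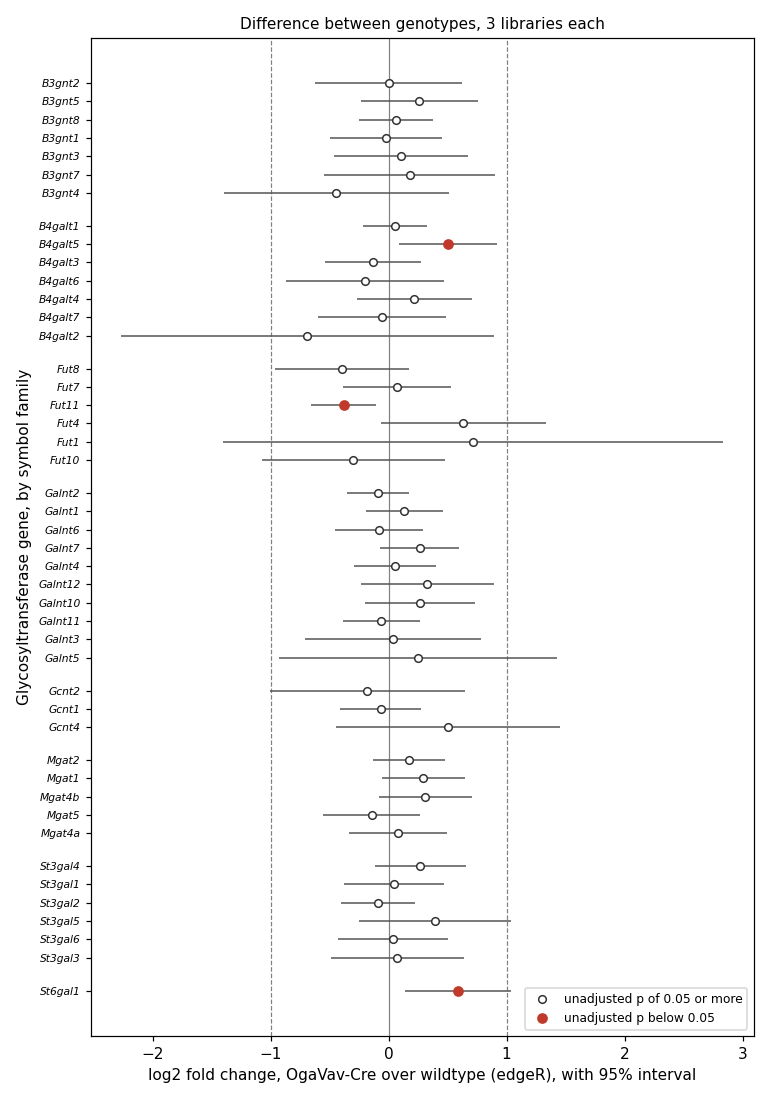
Log2 fold change of OgaVav-Cre over wildtype for each tested glycosyltransferase gene, with its 95% interval from edgeR (3 libraries per genotype) and dashed lines at -1 and 1. Red points mark the 3 genes with an unadjusted p below 0.05 (St6gal1, B4galt5 and Fut11), and the intervals of the other 42 genes include 0.

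Of the genes that branch N-glycans, Mgat1 commits a trimmed N-glycan to the hybrid and complex forms. It had 6139, 5413 and 5327 reads across OgaVav-Cre mice against 4068, 3557 and 4268 across wildtype. In CPM every OgaVav-Cre library (194 to 272) lay above every wildtype library (181 to 191), but the gap between the nearest libraries was small beside the OgaVav-Cre spread. edgeR gave a log2 fold change of 0.29 ± 0.15 (SE) at an adjusted p of 0.524, and 0.14 without OgaVav-Cre replicate 1 or 0.18 with the immunoglobulin share of each library as a covariate. Mgat2, the next enzyme in the pathway, had 2970, 3178 and 3122 reads against 2607, 2123 and 2283. Its CPM overlapped between genotypes (114 to 132 against 96.6 to 122), with a log2 fold change of 0.18 ± 0.13 (adjusted p 0.636) that was 0.091 without wildtype replicate 3. Mgat5 adds the branch that is most often extended with N-acetyllactosamine. Its reads were 553, 851 and 857 against 829, 598 and 683, with the lowest CPM in OgaVav-Cre replicate 1 (24.5) and the highest in wildtype replicate 1 (38.8), and its log2 fold change was -0.14 ± 0.18 (adjusted p 0.786). It was -0.0041 without wildtype replicate 1, -0.016 without OgaVav-Cre replicate 1 and -0.23 without OgaVav-Cre replicate 2 or wildtype replicate 3. Mgat4a and Mgat4b, which add a further branch, differed by log2 0.08 and 0.31 with unadjusted p of 0.663 and 0.105.

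Fut8 adds the core fucose of N-glycans and was the leading Fut gene at 18.0 RPKM. It had 3920, 4598 and 2802 reads across OgaVav-Cre mice against 4202, 4668 and 3852 across wildtype. OgaVav-Cre replicate 3 had the lowest level of all (102 CPM) and wildtype replicate 2 the highest (242 CPM), and the other libraries lay between 163 and 197 CPM. This gave a log2 fold change of -0.39 ± 0.24 (adjusted p 0.578), which was -0.17 without OgaVav-Cre replicate 3 and -0.23 without wildtype replicate 2. With the immunoglobulin share as a covariate it was larger, at -0.57 (edgeR unadjusted p 0.0237, adjusted p 0.524).

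Among the galactosyltransferases, B4galt1, which adds galactose to N-glycan branches, led its family at 17.5 RPKM. It had 2162, 2429 and 3068 reads across OgaVav-Cre mice against 2209, 1807 and 2253 across wildtype, which is 95.9 to 112 CPM against 93.7 to 104 CPM. The genotypes overlapped, and the 95% interval of the log2 fold change was -0.22 to 0.33. B4galt5 (gene ID 56336, mm9 chromosome 2 from 167123944 to 167174683, minus strand) makes lactosylceramide, the base of most glycolipids. It had 867, 966 and 1413 reads across OgaVav-Cre mice against 645, 493 and 819 across wildtype. All 3 OgaVav-Cre libraries (38.5, 38.2 and 51.6 CPM) lay above the wildtype libraries (30.2, 25.6 and 34.7 CPM). For B4galt5 the log2 fold change was 0.50 ± 0.18, with an unadjusted p of 0.0227 and an edgeR adjusted p of 0.428. It was 0.35 without OgaVav-Cre replicate 3 (unadjusted p 0.0738) and 0.40 without wildtype replicate 2 (unadjusted p 0.0803). With the immunoglobulin share as a covariate it was larger, at 0.61 (edgeR unadjusted p 0.00625, adjusted p 0.455).

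St6gal1 (gene ID 20440, mm9 chromosome 16 from 23224813 to 23360421, plus strand) caps N-glycans with sialic acid and was the only St6gal gene tested. It had 3304, 2384 and 3250 reads across OgaVav-Cre mice against 1575, 1839 and 1653 across wildtype. Scaled to library size, OgaVav-Cre replicates 1 and 3 (147 and 119 CPM) were above all wildtype libraries, while OgaVav-Cre replicate 2 (94.3 CPM) lay just below wildtype replicate 2 (95.4 CPM). The other wildtype libraries had 73.8 and 69.9 CPM. OgaVav-Cre libraries averaged 120 ± 26.1 CPM (SD, n = 3) against 79.7 ± 13.7 CPM for wildtype. For St6gal1 the log2 fold change was 0.59 ± 0.19, with an unadjusted p of 0.0169 and an edgeR adjusted p of 0.415, and its 95% interval was 0.14 to 1.04. It was 0.42 without OgaVav-Cre replicate 1, 0.54 without wildtype replicate 1 and 0.50 without wildtype replicate 3, with unadjusted p of 0.0684, 0.0557 and 0.0631. OgaVav-Cre replicate 1, the library with the highest St6gal1 level, also had the highest plasma cell marker sum, whereas OgaVav-Cre replicate 3, the next highest, had the lowest. Across the 6 libraries the log2 levels of St6gal1 and of this sum gave a Pearson r of 0.582 (exact permutation p 0.229). Without OgaVav-Cre replicates 1 and 3, r was 0.982. With the immunoglobulin share of each library as a covariate the log2 fold change was 0.47.

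**Figure D3:**
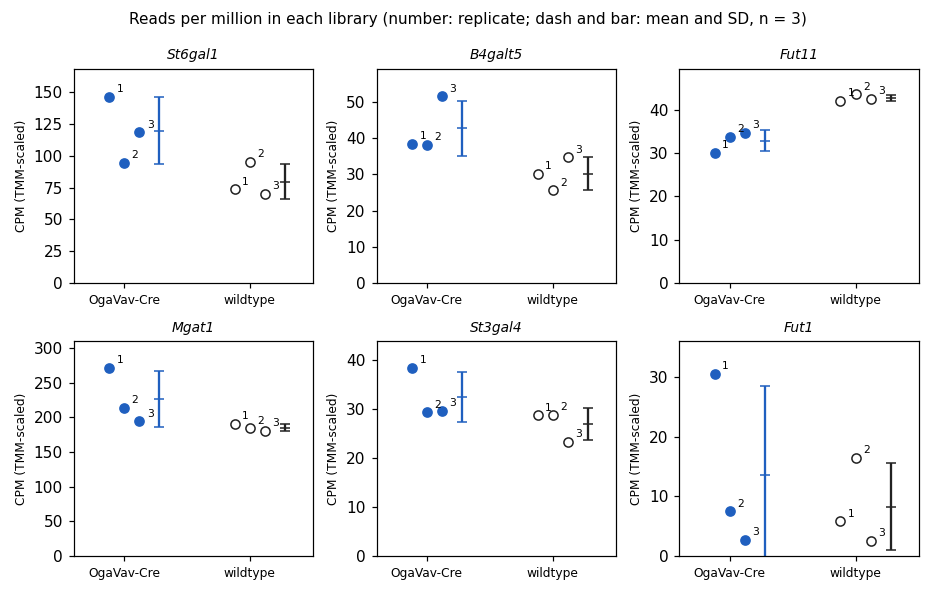
Level (CPM, TMM-scaled) of St6gal1, B4galt5, Fut11, Mgat1, St3gal4 and Fut1 in each library, numbered by replicate, with the mean and SD of each genotype (n = 3) beside the points. The genotypes do not overlap for B4galt5, Fut11, Mgat1 and St3gal4, overlap narrowly for St6gal1, and overlap widely for Fut1, whose lower OgaVav-Cre bar runs past 0.

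The B3gnt and Gcnt genes that extend and branch N-acetyllactosamine were among the most abundant. B3gnt2 had 2752, 2988 and 4749 reads across OgaVav-Cre mice against 4131, 1901 and 2870 across wildtype. Its levels were 118 to 173 CPM against 98.6 to 194 CPM, with OgaVav-Cre replicate 3 and wildtype replicate 1 the highest of their genotypes. Its log2 fold change was -0.000165 ± 0.27, and 0.015 with RLE in place of TMM scaling. Gcnt2 had 5475, 9037 and 4281 reads against 4079, 7918 and 6049. It was highest in replicate 2 of both genotypes (358 and 411 CPM) and lowest in OgaVav-Cre replicate 3 (156 CPM) and wildtype replicate 1 (191 CPM), with a log2 fold change of -0.18 ± 0.36. In both genotypes replicate 2 had a low sum of B cell precursor markers, and OgaVav-Cre replicate 3 and wildtype replicate 1 had the highest sums; the part of these cells in the levels of B3gnt2 and Gcnt2 was not tested. B3gnt5, which starts the lacto-series glycolipids, had 1263, 1836 and 2834 reads against 1292, 1248 and 1616. OgaVav-Cre replicate 3 was the highest library (103 CPM against 56.0 to 72.7 CPM in the others). Its log2 fold change was 0.26 ± 0.21, and -0.0023 without that library. With the immunoglobulin share as a covariate it was 0.38 (edgeR unadjusted p 0.0413, adjusted p 0.544). The locus listed as B3gnt1 carries the gene ID that RefSeq now names B4gat1, and it had a log2 fold change of -0.02.

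The first step of mucin-type O-glycans is made by the Galnt enzymes, of which 10 of 13 were tested and none had an unadjusted p below 0.05. Galnt2 had 2444, 2762 and 2620 reads across OgaVav-Cre mice against 2318, 2269 and 2540 across wildtype, at 21.9 RPKM the highest of the family. Galnt1 followed at 20.2 RPKM, with 2602, 3678 and 3882 reads against 2870, 2376 and 2577. Both genes overlapped between genotypes, with log2 fold changes of -0.09 ± 0.11 and 0.13 ± 0.14, which with 1 library left out ran from -0.12 to -0.029 (nearest 0 without OgaVav-Cre replicate 3) and from 0.057 (without wildtype replicate 3) to 0.23 (without OgaVav-Cre replicate 1). Over the 10 Galnt genes log2 fold changes ran from -0.09 to 0.33, with 7 above and 3 below 0.

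Gcnt1 makes the core 2 branch of O-glycans, on which leukocyte selectin ligands are built. It had 1113, 1694 and 1459 reads across OgaVav-Cre mice against 1252, 1247 and 1286 across wildtype. Its levels were 49.4 to 67.0 CPM against 54.4 to 64.7 CPM, and the 95% interval of its log2 fold change was -0.41 to 0.28. The steps before it are made by C1galt1, which adds galactose to make core 1, and C1galt1c1, its chaperone, which lie outside the symbol pattern. C1galt1 had 1327, 1714 and 2901 reads against 2401, 1246 and 2105, and C1galt1c1 had 327, 322 and 452 against 327, 353 and 394. Neither was called, with log2 fold changes of -0.19 ± 0.27 and -0.20 ± 0.17. Without OgaVav-Cre replicate 2 that of C1galt1c1 was -0.11.

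Of the genes that finish selectin ligands, Fut7 makes sialyl Lewis x on leukocytes. It had 760, 906 and 640 reads across OgaVav-Cre mice against 619, 651 and 608 across wildtype, with a log2 fold change of 0.07 ± 0.20. Its lowest levels were in OgaVav-Cre replicate 3, wildtype replicate 3 and wildtype replicate 1 (23.4, 25.7 and 29.0 CPM), which are the 3 libraries with the lowest plasma cell sums and also those with the highest B cell precursor sums. The other 3 libraries had 33.7 to 35.9 CPM. Fut4, which makes Lewis x, had 566, 531 and 427 reads against 310, 330 and 192. OgaVav-Cre levels were 25.1, 21.0 and 15.6 CPM and wildtype levels 14.5, 17.1 and 8.12 CPM, so that OgaVav-Cre replicate 3 lay below wildtype replicate 2. Fut4 had a log2 fold change of 0.63 ± 0.30 at an unadjusted p of 0.0684 and an edgeR adjusted p of 0.493. It was 0.38 without wildtype replicate 3 and 0.44 with the immunoglobulin share as a covariate. Without OgaVav-Cre replicate 3 it was 0.80, and without wildtype replicate 2 it was 0.87 (edgeR unadjusted p 0.0308 and 0.0277).

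The St3gal enzymes cap galactose with sialic acid. St3gal4 had 863, 740 and 809 reads across OgaVav-Cre mice against 612, 554 and 548 across wildtype. The lowest OgaVav-Cre library (29.3 CPM) lay just above the highest wildtype library (28.7 CPM), and the log2 fold change was 0.27 ± 0.17 (adjusted p 0.577). It was 0.13 without OgaVav-Cre replicate 1, 0.17 without wildtype replicate 3 and 0.16 with the immunoglobulin share as a covariate. St3gal1, which caps core 1 O-glycans, had 2341, 3885 and 3483 reads against 2209, 2453 and 3369, and St3gal6, which caps N-acetyllactosamine, had 373, 505 and 664 against 495, 316 and 461. Both overlapped, with a log2 fold change of 0.04 each.

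Fut11 (gene ID 73068, mm9 chromosome 14 from 21514190 to 21520898, plus strand) was the one gene of the set that was lower in OgaVav-Cre without overlap. It had 678, 852 and 950 reads across OgaVav-Cre mice against 897, 839 and 1006 across wildtype, which is 30.1, 33.7 and 34.7 CPM against 42.0, 43.5 and 42.6 CPM. The raw reads overlap and the scaled levels do not, since the OgaVav-Cre libraries were deeper. For Fut11 the log2 fold change was -0.38 ± 0.12, with an unadjusted p of 0.0133 and an edgeR adjusted p of 0.412. Opposite-strand loci overlap the Fut11 locus. 6230400D17Rik, which spans all of it, had 276 to 390 reads and a log2 fold change of -0.26 (unadjusted p 0.130), in the same direction as Fut11, and AK042841, which overlaps its start, had 1236 to 2023 reads and a log2 fold change of 0.05. The sources do not state that counting used strand, so reads of such loci and of Fut11 cannot be told apart where they overlap.

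Fut1, which makes the H antigen, had the highest log2 fold change of the set and the widest spread, and it was picked for description after its values were seen. It had 688, 188 and 74 reads across OgaVav-Cre mice against 124, 316 and 60 across wildtype. Its log2 fold change was 0.72 ± 0.91 (edgeR adjusted p 0.790), and it was -0.70 without OgaVav-Cre replicate 1 and -0.52 with the immunoglobulin share as a covariate. Its levels were 30.5, 7.44 and 2.70 CPM for OgaVav-Cre against 5.81, 16.4 and 2.54 CPM for wildtype, and within each genotype the order of the libraries was the order of their plasma cell marker sums. Across the 6 libraries the log2 levels of Fut1 and of the plasma cell marker sum gave a Pearson r of 0.977 (exact permutation p 0.00278) and a Spearman rho of 0.943 (exact permutation p 0.0167). Most of this sum was Ighm, Igkc and Igj, and the immunoglobulin share was computed from reads on the same genes. The relation and the covariate result therefore rest on the same reads. Without OgaVav-Cre replicates 1 and 3, the libraries farthest from the median of the marker sum, r was 0.936. Over the 45 genes for which this relation was computed, the Benjamini-Hochberg adjusted p of Fut1 was 0.125 for r and 0.420 for rho, so that it did not pass the correction, and neither did that of any other gene. The next highest positive r were those of Fut7 and Fut4. Fut7 had an r of 0.873 (exact permutation p 0.0389) and a rho of 0.771 (exact permutation p 0.103), and an r of 0.949 without the same 2 libraries. Fut4 had an r of 0.799 (exact permutation p 0.0458) and a rho of 0.771 (exact permutation p 0.103), and an r of 0.876 without them. For Fut7 and Fut4 the adjusted p was 0.46 for r and 0.420 for rho. St3gal6 had a negative r of -0.801 (exact permutation p 0.0694), larger in size than that of Fut4. By rho, St3gal2 (0.886), B3gnt8 (-0.829) and Mgat4a (-0.829) were farther from 0 than Fut7 and Fut4. Without OgaVav-Cre replicates 1 and 3, other genes had an r farther from 0 than Fut1. Among them were Mgat4a (-0.990), B3gnt4 (-0.984), St6gal1 (0.982) and Gcnt1 (0.952, against 0.071 over all 6 libraries). An r from so few libraries therefore does not set Fut1, Fut7 or Fut4 apart.

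**Figure D4:**
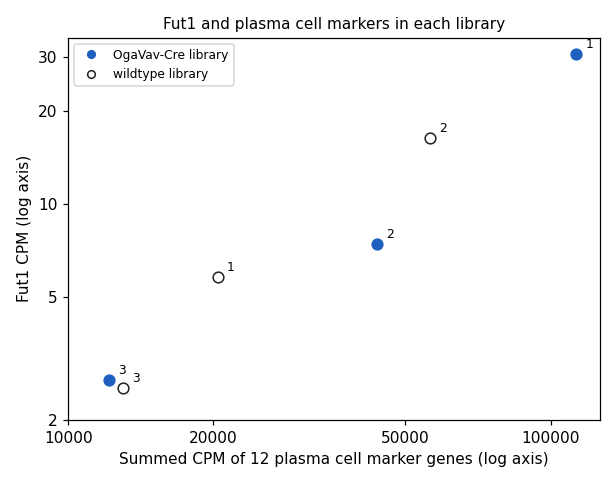
Fut1 level against the summed level of 12 plasma cell marker genes in each library, both in CPM on log axes, with replicate numbers beside the points (filled, OgaVav-Cre; open, wildtype). Fut1 ranges from 2.54 to 30.5 CPM and the marker sum from 12158 to 112924 CPM. Wildtype libraries reach 16.4 CPM of Fut1 and a marker sum of 56115 CPM, and only OgaVav-Cre replicate 1 lies above these.

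Levels per length were also summed over each family on the authors' RPKM scale, which was not scaled by TMM. The Mgat family summed to 92.4 to 103 RPKM in OgaVav-Cre and 85.5 to 96.3 RPKM in wildtype, and the St6gal family to 16.7 to 23.8 against 13.0 to 16.8 RPKM. The Gcnt family, which follows Gcnt2, ranged from 27.7 to 55.9 RPKM in OgaVav-Cre and from 33.4 to 62.5 RPKM in wildtype. The B4galt family averaged 44.5 ± 4.82 and 44.0 ± 1.03 RPKM (SD, n = 3) and the Galnt family 79.7 ± 9.31 and 79.9 ± 1.05 RPKM. On this scale the sums of all 8 families overlapped between genotypes.

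**Figure D5:**
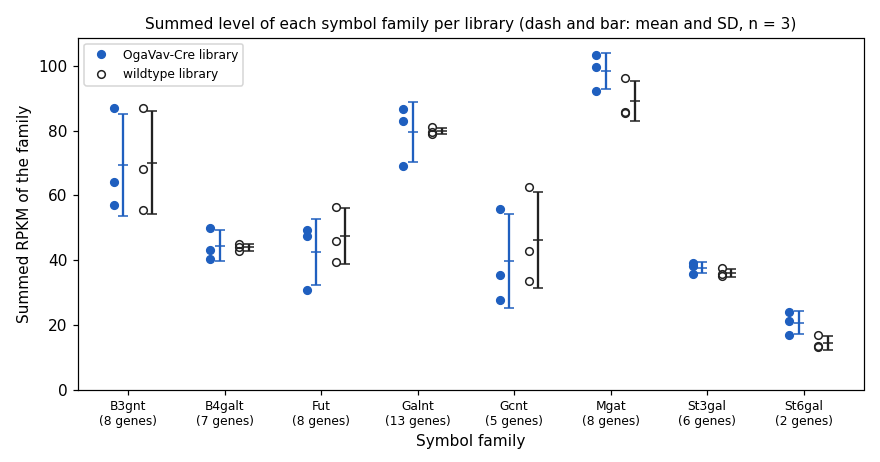
Summed RPKM of each symbol family in each library (filled, OgaVav-Cre; open, wildtype), with the mean and SD of each genotype (n = 3). The genotypes overlap in every family, and the B3gnt, Fut and Gcnt families vary most between libraries.

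The steps around these enzymes were described with 86 further genes in 4 lists, of which 75 were tested. None was called by edgeR, where 0.0318% of all loci were called. At an unadjusted p below 0.05, 12 of the 75 tested genes were found, against 10.6% of all loci. Of the 75, 6 were higher, against 4.38% of all loci, and 6 lower, against 6.27% of all loci. These shares of all loci are the background for each list. DESeq2 called 2 of the 86, where it called 0.87% of the loci with an adjusted p: Galk1 (adjusted p 0.0397) and B3galt5 (adjusted p 0.0443).

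Of 21 tested genes that make donor sugars or carry them into the Golgi, 1 was higher and 2 were lower at an unadjusted p below 0.05. Galk1, which phosphorylates galactose on the way to UDP-galactose, had 849, 1064 and 753 reads across OgaVav-Cre mice against 492, 398 and 441 across wildtype, without overlap in CPM. Its log2 fold change was 0.78 ± 0.19 with an edgeR adjusted p of 0.384. Fpgt, which makes GDP-fucose in the salvage pathway, had 333, 468 and 396 reads against 398, 463 and 566 and a log2 fold change of -0.48 ± 0.18. Slc35b4, a nucleotide sugar transporter, had 1595, 1767 and 1753 against 1829, 1826 and 1910 reads and a log2 fold change of -0.35 ± 0.11. Of 9 enzymes that trim N-glycans before branching, Man1c1, a Golgi mannosidase, was higher at an unadjusted p of 0.0305, with 670, 686 and 1080 reads against 444, 411 and 623 and a log2 fold change of 0.49 that was 0.32 without OgaVav-Cre replicate 3.

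Among 28 tested genes of other Golgi glycosyltransferases, 4 were higher and 3 lower at an unadjusted p below 0.05. B3galt5, a galactosyltransferase of type 1 chains, had 177, 120 and 162 reads across OgaVav-Cre mice against 42, 66 and 23 across wildtype, without overlap and with a log2 fold change of 1.54 ± 0.45 (edgeR adjusted p 0.412). St8sia1, which makes ganglioside GD3, had 191, 170 and 513 reads against 118, 90 and 133, and its log2 fold change of 1.10 ± 0.39 was 0.53 without OgaVav-Cre replicate 3. B3galnt2, a transferase of the dystroglycan glycan, had 1219, 1277 and 1406 reads against 1436, 1262 and 1400 and a log2 fold change of -0.30 ± 0.11, and St8sia2, a polysialyltransferase, had 27 to 30 reads against 32 to 54. Of 17 tested genes for selectin ligand carriers, galectins and sialidases, 1 was lower at an unadjusted p below 0.05. This was Selp, which encodes P-selectin, with 243, 480 and 194 reads against 529, 470 and 485 and a log2 fold change of -0.92 ± 0.33 (edgeR adjusted p 0.437).

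Of the 57 glycosyltransferase genes, 39 overlap another listed locus and 26 of these overlap one on the opposite strand. The 3 shorter loci that repeat the symbols Mgat5, Galnt11 and Galnt5 had log2 fold changes of -0.12, -1.73e-05 and 0.64. None was called.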

How the data were processed

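Poly(A)-selected RNA of sorted LSK cells was sequenced as single-end reads of 50 bp, 1 library per mouse. Alignment to mm9 and the summary of reads by locus were done by the authors with Genomatix, and the submitters' processing notes name CASAVA 1.8.2. Versions of the aligner and annotation, and the use of strand in counting, are not given in the sources used here. The deposited counts are raw reads per locus. The deposited RPKM were made by the authors from these counts, locus length and a divisor 1.12 to 1.19 times the sum of the counts. The table also holds normalized expression and the authors' own fold changes and p-values, which were not used.

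Genotypes came from the labels. Counts were tested with edgeR 4.0.16 (TMM, filterByExpr, quasi-likelihood F test, two-sided) in R 4.3.3, with genotype as the only term and Benjamini-Hochberg adjustment over all 22032 loci tested. Of 53445 loci, those with too few reads were left out of the test. Log2 fold changes are OgaVav-Cre over wildtype with SE. The biological coefficient of variation was 0.308. No test of 3 against 3 libraries by exact permutation can go below p = 0.1, so single genes were not tested that way. The edgeR p-values set the difference between genotypes against the variation between mice, estimated for each locus with information shared over all loci tested. Limits on 0 reads cover counting error only. Plasma relations used log2(CPM + 0.5).

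Genes named with values are those with an unadjusted p below 0.05, the 2 highest by RPKM in each family, Mgat1, Mgat2, Mgat5, Fut8, B4galt1, St6gal1, Gcnt1, C1galt1, C1galt1c1, Fut4, Fut7, St3gal4 and St3gal6, Mgea5, and up to 4 genes of each pathway list with the smallest unadjusted p below 0.05. Other genes given with values were chosen after their values were seen. The members and lists were chosen with earlier results of these data known.

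Alternatives were RLE normalization, every locus kept whatever its reads, a minimum of 10 reads in each library, DESeq2 1.42.0, limma-voom (limma 3.58.1), the replicate number as a block, the share of reads on immunoglobulin loci as a covariate, every locus listed, and each library left out in turn. For the pathway lists these were added after seeing the data. The fits were tested on simulated data. Python 3.11.15, pandas 2.3.3 and matplotlib 3.10.9 made the tables and figures.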

Additional observations from a re-analysis of the deposited data

How the results depend on the processing

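No glycosyltransferase gene was called under any alternative run. The 3 genes with an unadjusted p below 0.05 became 5 with the replicate block, 6 with the immunoglobulin share as a covariate and 2 to 5 with 1 library left out, the 5 without OgaVav-Cre replicate 3. The replicate numbers were not taken to pair the mice (correlations of same-numbered deviations -0.09, 0.31 and 0.38), and the block changed no call. The median log2 fold change of 0.063 was 0.102 with the covariate and 0.0413 to 0.117 with 1 library left out, highest without OgaVav-Cre replicate 1 and lowest without OgaVav-Cre replicate 3. The 12 pathway genes with an unadjusted p below 0.05 became 13 with RLE, 14 without a filter and 3 to 12 with 1 library left out, with 3 without wildtype replicate 2 and 7 without OgaVav-Cre replicate 2 or wildtype replicate 3. Mgea5 stayed between -5.13 and -4.93 with 1 library left out. Of 31 genes followed through 403 alternative values, 21 never changed sign. B3gnt2 was at 0.0153 with RLE, 0.00929 without a filter, 0.0155 with DESeq2, 0.0364 with limma-voom, 0.0392 with the block and 0.148 with the covariate. With the covariate C1galt1 was at 0.00246, Fut7 at -0.0510 and Fut1 at -0.52. With 1 library left out, log2 fold changes ranged from -0.20 to 0.33 for B3gnt2, -0.00234 to 0.45 for B3gnt5, -0.0205 to 0.10 for B4galt1, -0.48 to 0.0145 for C1galt1, -0.70 to 1.70 for Fut1, -0.0474 to 0.24 for Fut7, -0.20 to 0.0218 for Gcnt1, -0.52 to 0.18 for Gcnt2, -0.11 to 0.17 for St3gal1 and -0.11 to 0.18 for St3gal6. The cause was not tested. The 95% intervals reached 0.26 to 2.12 (log2) to either side of the fold change, which limits what depth and 3 mice per genotype can show.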
